A study of Mus musculus with 16 samples.

Results

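The major plasma proteins that hepatocytes secrete were followed through bulk RNA-seq of lung and liver from newborn mice. The members were 10 genes chosen by symbol, namely Alb, Ahsg, Fetub, Ttr, Gc, Ambp, Rbp4, Serpina1a, Serpina6 and Hrg, out of 25054 rows in the table of counts. All mice were on the C57BL/6J background, and pups fell into 4 groups by Man1a2 genotype and survival over the first day of life: dead null, dead heterozygous, live heterozygous and live wild-type (WT), where the mutant allele lacks exon 2 of Man1a2, a mannosidase that trims N-glycans in the Golgi. Both heterozygous parents of a litter drank either N-acetyl cysteine (NAC), a thiol antioxidant, in solution at up to 1 g/kg, or water without it (placebo), from 1 week before breeding until delivery. Each of the 16 libraries came from a pool of RNA from 3 independent experiments, or from 2 for dead heterozygous pups, so that every pup group, treatment and labelled tissue had 1 library. Tissue of dead pups was taken when they died and that of live pups at the end of the first day, so survival and age at harvest go together. With 1 library in each labelled group, no labelled group had replicates of its own.

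Hepatocytes release most of the protein of blood plasma, and they make these proteins from transcripts that are among the most abundant in the liver. Albumin, encoded by Alb, carries fatty acids and holds plasma osmotic pressure, and its relative Gc carries vitamin D. Ahsg and Fetub encode the fetuins, and Hrg encodes histidine-rich glycoprotein, all 3 of the cystatin superfamily. Rbp4 carries retinol out of the liver in a complex with transthyretin, the product of Ttr. Ambp encodes a precursor that is cut into alpha-1-microglobulin and bikunin. Serpina1a encodes an alpha-1-antitrypsin, which inhibits neutrophil elastase, and Serpina6 encodes the corticosteroid-binding globulin.

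The tissue labels did not match the marker genes in many libraries. Libraries were therefore also grouped by the surfactant gene Sftpc, which marks alveolar type 2 cells of the lung, and by Alb, both as raw counts scaled to a library total of 1000000 (CPM). Libraries with Alb of at least 50000 CPM are called liver-content here, those with Sftpc of at least 1000 CPM and Alb under 1000 CPM lung-content, and the rest mixed. Of the 16 libraries, 8 were liver-content, 7 were lung-content and 1 was mixed. The 8 liver-content libraries were live WT NAC, live heterozygous NAC, dead heterozygous placebo and dead null NAC labelled liver, and live WT placebo, live heterozygous placebo, dead heterozygous NAC and dead null NAC labelled lung. The lung-content libraries were live WT NAC, live heterozygous NAC and dead heterozygous placebo labelled lung, and live WT placebo, live heterozygous placebo, dead heterozygous NAC and dead null placebo labelled liver. The library labelled dead null placebo lung was mixed, with Alb at 9280 CPM and Sftpc at 5553 CPM. Dead null NAC thus had liver-content libraries under both tissue labels and no lung-content library. The library nearest the Alb cut from above was dead null NAC labelled liver, at 51003 CPM, and the nearest below was the mixed one. These classes describe measured content, and the libraries in them are not replicates that the study assigned.

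Total counts ranged from 14115814 to 16107764 in the liver-content libraries and from 7236906 to 11808840 in the lung-content ones, and the mixed library had 8601331. The ribosomal precursor Rn45s took 0.845 to 6.29% of counts in liver-content libraries, 4.05 to 26.2% in lung-content ones and 24.3% in the mixed one. The summed level of 12 hepatocyte markers that are not secreted, among them Hnf4a and Cps1, was 5295 to 9082 CPM in liver-content libraries, 14.7 to 25.3 CPM in lung-content ones, where 1 to 3 of the 12 were at 0, and 2456 CPM in the mixed one. The summed level of 12 lung markers was 55.6 to 79.4 CPM in liver-content libraries and 10594 to 24106 CPM in lung-content ones. Sftpc, which set the classes, is among these 12, so this difference is in part fixed by the rule. Man1a2 was at 24.5 to 70.0 CPM in the libraries labelled null and at 22.6 to 121 CPM over all 16, and counts per gene do not separate exon 2 from the rest of the transcript.

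In the mouse genome (GRCm38, GENCODE M21 gene models) the members lay in several clusters. Ahsg (chr16:22891277-22899449), Fetub (chr16:22918334-22939778) and Hrg (chr16:22951072-22961656) stood in a row on the plus strand. Alb (chr5:90460897-90476602, plus) and Gc (chr5:89417522-89457898, minus) shared chromosome 5. Serpina6 (chr12:103646630-103657212, minus) and Serpina1a (chr12:103853589-103863562, minus) shared chromosome 12. Ambp (chr4:63143275-63154799, minus) and Rbp4 (chr19:38116629-38125281, minus) stood apart from other members, as did Ttr. An exon of Ahsg overlapped Gm30505 on the other strand, and whether strand was used in counting is not given in the sources used here. Of the 1482 stretches of 100 bases in the Serpina1a transcript, 740 (49.9%) occurred letter for letter in 5 other genes, mostly Serpina1c, so its level is uncertain. None of the other 9 members shared such a stretch with another gene.

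The RefSeq promoter windows of GRCm38.p6 held 8 of the 10 members in 10 windows, with 2 windows each for Fetub and Rbp4, and Ttr and Serpina6 had no entry. Each window was searched on both strands for 4 motifs. The core promoter motif known as the Goldberg-Hogness box was searched as TATAAA and is called the TATA box here. The hepatocyte factor HNF1 was represented by the core GTTAAT of its site. The C/EBP factors, which are also abundant in hepatocytes, were represented by TTGCNNAA, where N is any base. The last motif was the CCAAT box, searched by the letters of its name. The HNF1 core was in 3 of the 10 member windows, those of Alb, Gc and Serpina1a, against 6.43% of all 32851 windows. A C/EBP site was in 4 of the 10 member windows against 9.56%, a CCAAT box in 7 of 10 against 33.8%, and a TATA box in 2 of 10 against 12.4%. A letter match describes the sequence and is not evidence that a factor was bound. The 250 bases before the start site are shown for the 3 members with the HNF1 core, and for Hrg and Rbp4, whose levels moved together across the liver-content libraries as described further on. Capitals mark the motif letters, read 5' to 3' on the strand of the gene. A motif on the opposite strand appears as its reverse complement, such as ATTGG for CCAAT. In Serpina1a the last base of ATTGG is also the first base of GTTAAT.
Alb, chr5:90460620-90460869, plus strand: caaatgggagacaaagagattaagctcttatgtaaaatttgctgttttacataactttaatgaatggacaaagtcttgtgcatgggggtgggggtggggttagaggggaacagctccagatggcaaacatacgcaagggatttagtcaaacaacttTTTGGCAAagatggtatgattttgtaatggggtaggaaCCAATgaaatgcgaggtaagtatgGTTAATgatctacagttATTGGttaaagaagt
Gc, chr5:89457899-89458148, minus strand: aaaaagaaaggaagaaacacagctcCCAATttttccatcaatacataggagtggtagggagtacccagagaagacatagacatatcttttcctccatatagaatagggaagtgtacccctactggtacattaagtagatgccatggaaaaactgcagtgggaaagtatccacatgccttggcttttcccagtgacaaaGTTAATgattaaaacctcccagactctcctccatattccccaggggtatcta
Serpina1a, chr12:103863620-103863869, minus strand: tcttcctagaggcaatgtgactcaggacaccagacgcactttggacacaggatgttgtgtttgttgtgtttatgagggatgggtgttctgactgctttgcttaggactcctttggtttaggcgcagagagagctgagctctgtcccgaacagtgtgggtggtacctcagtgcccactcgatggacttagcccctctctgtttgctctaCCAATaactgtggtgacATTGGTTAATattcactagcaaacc
Hrg, chr16:22950822-22951071, plus strand: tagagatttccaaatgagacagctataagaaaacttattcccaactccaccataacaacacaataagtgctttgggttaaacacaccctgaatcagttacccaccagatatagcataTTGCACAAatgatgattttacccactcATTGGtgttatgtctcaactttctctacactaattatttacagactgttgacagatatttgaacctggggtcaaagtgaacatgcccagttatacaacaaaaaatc
Rbp4, chr19:38125322-38125571, minus strand: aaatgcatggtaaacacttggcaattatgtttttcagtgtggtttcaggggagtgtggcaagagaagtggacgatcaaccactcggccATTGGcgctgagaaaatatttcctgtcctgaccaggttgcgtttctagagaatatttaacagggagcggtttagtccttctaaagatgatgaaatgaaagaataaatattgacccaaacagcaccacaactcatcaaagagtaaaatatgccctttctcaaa
Counted back from the start site, the HNF1 core began at -32 in Alb, -52 in Gc and -21 in Serpina1a. A C/EBP site began at -94 in Alb and at -133 in Hrg, and the second annotated window of Rbp4 also held one. No motif of the 4 other than a CCAAT box was in the Rbp4 window shown.

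The 10 members together took 9.95 to 14.8% of all counts in the liver-content libraries, with a median of 13.8%. They took 1.77% in the mixed library and 0.00354 to 0.0235% in the lung-content libraries. The share of reads that a gene takes in bulk tissue reflects both how many of its cells were present and how much RNA each made, and fewer hepatocytes and less RNA per hepatocyte cannot be told apart here. Alb alone made up 51.3 to 68.3% of the members' counts in the liver-content libraries and Ahsg 21.2 to 32.0%. Per kilobase of exon, the median level in liver-content libraries was 43675 CPM for Alb and 18749 CPM for Ahsg, followed by Ttr at 3002, Serpina1a at 2675, Rbp4 at 1982, Gc at 1448, Ambp at 1392, Hrg at 359, Fetub at 261 and Serpina6 at 2.88 CPM per kilobase. The ranges over the 8 libraries did not overlap between Alb and Ahsg, between Ahsg and Ttr, between Ambp and Hrg, or between Fetub and Serpina6. Every other pair of neighbours in that order overlapped in range.

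**Figure D1:**
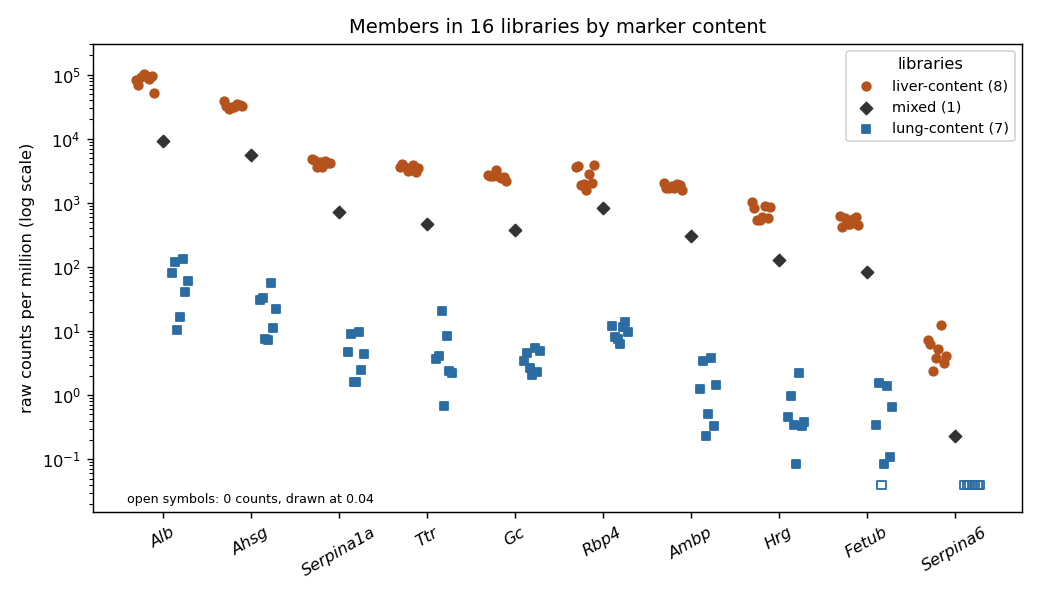
Level of each member in each of the 16 libraries, as raw CPM on a log axis, with 1 point for each library colours and shapes for liver-content, lung-content and mixed libraries, and open symbols for 0 counts. In 9 of the 10 members the 8 liver-content points lie together at 426 CPM or more and the lung-content points at 135 CPM or less. The mixed point lies below the liver-content ones, and for Alb this order follows from the rule. Serpina6 stays at 12.3 CPM or less in every library. The share of all genes that separate by content was not counted.

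Albumin ranked first or second among all genes in each liver-content library. Raw Alb levels were 82162 CPM in the live WT placebo library labelled lung, 69921 in live heterozygous placebo labelled lung, 91486 in dead heterozygous NAC labelled lung and 101254 in dead null NAC labelled lung. They were 96045 CPM in live WT NAC labelled liver, 86185 in live heterozygous NAC labelled liver, 95418 in dead heterozygous placebo labelled liver and 51003 in dead null NAC labelled liver. The highest library was thus 1.99 times the lowest, and these were the libraries labelled lung and liver of the same pup group and treatment. Gc ranged from 2210 to 3228 CPM, with a median of 2607. Its highest and lowest values were in the same pair of dead null NAC libraries as those of Alb, the one labelled lung being high and the one labelled liver low. Both genes were also compared on log2 CPM scaled by the trimmed mean of M-values (TMM) instead of raw CPM. On that scale Pearson's r between Gc and Alb across the 8 liver-content libraries was 0.79 and Spearman's rho 0.62, given as a description only.

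Among the cystatin superfamily, Ahsg was the most abundant and one of the steadiest members. Ahsg ran from 29037 to 38345 CPM, a factor of 1.32, around a median of 31949. Fetub, its near neighbour on chromosome 16, ran from 426 to 612 CPM around a median of 512, a factor of 1.44. Hrg, the third gene in the row, had 1014 CPM in live WT placebo labelled lung, 830 in live heterozygous placebo labelled lung, 536 in dead heterozygous NAC labelled lung, 545 in dead null NAC labelled lung, 602 in live WT NAC labelled liver, 897 in live heterozygous NAC labelled liver, 577 in dead heterozygous placebo labelled liver and 858 in dead null NAC labelled liver. Hrg thus lay either between 536 and 602 CPM or between 830 and 1014 CPM, with 4 libraries in each range.

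The carrier pair of retinol differed in spread. Ttr varied by a factor of 1.35, from 3048 to 4100 CPM around a median of 3560. Rbp4 varied by a factor of 2.41. Its levels were 3584 CPM in live WT placebo labelled lung, 3733 in live heterozygous placebo labelled lung, 1879 in dead heterozygous NAC labelled lung, 1972 in dead null NAC labelled lung, 1607 in live WT NAC labelled liver, 2818 in live heterozygous NAC labelled liver, 2065 in dead heterozygous placebo labelled liver and 3866 in dead null NAC labelled liver. Rbp4 thus also had 4 libraries at 2065 CPM or less and 4 at 2818 CPM or more. Ambp, a lipocalin like Rbp4, varied least of all members, by a factor of 1.26, from 1606 to 2022 CPM around a median of 1764. Ambp followed Ahsg across the 8 libraries on the log2 TMM scale, with Pearson's r of 0.88 and Spearman's rho of 0.95.

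The 2 serpins stood at opposite ends of abundance. Serpina1a ran from 3567 to 4787 CPM around a median of 4229, a factor of 1.34. Its close copies Serpina1b, Serpina1c, Serpina1d and Serpina1e had medians of 5427, 2005, 2549 and 6514 CPM in the same libraries, and reads shared among them could be split in counting. Serpina6 had the fewest counts, 34 to 183 in a library, or 2.35 to 12.3 CPM, a factor of 5.26. It ranked between 8043 and 11757 among all rows of a liver-content library, where the other 9 members ranked within the first 259.

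**Figure D2:**
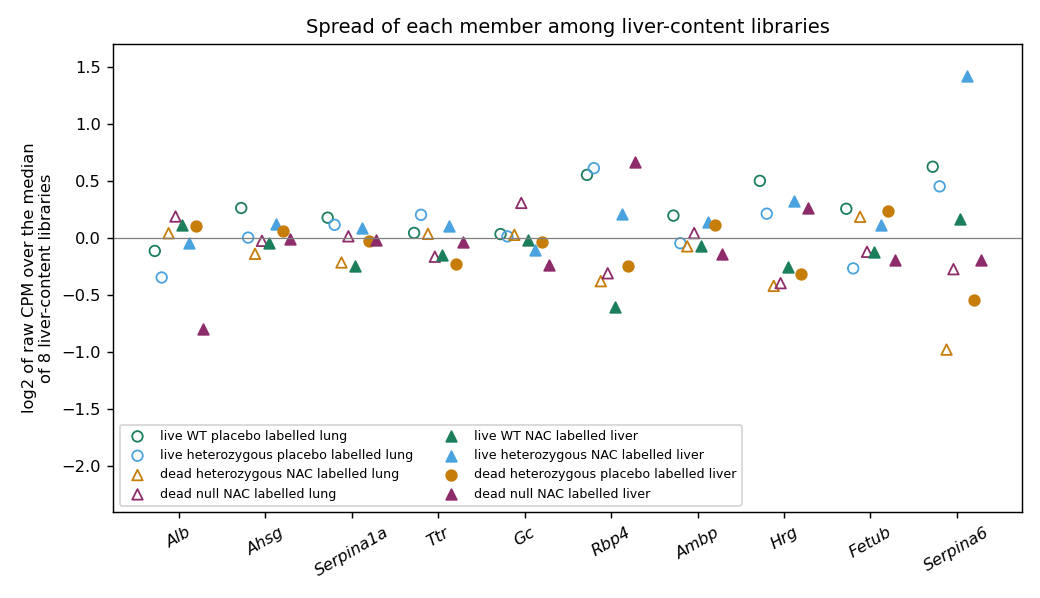
Level of each member in each of the 8 liver-content libraries, divided by the median of that member over the 8, on a log2 axis. The points of Ambp and Ahsg lie closest together, with highest over lowest of 1.26 and 1.32, and those of Alb, Hrg, Rbp4 and Serpina6 are the widest, with 1.99, 1.89, 2.41 and 5.26.

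The same 4 liver-content libraries were highest in Rbp4, highest in Hrg and lowest in Alb, on raw CPM and on the TMM scale alike. This split was seen in the data, and the share of all genes that divide these libraries in the same way was not counted. Whether it is particular to these members is therefore not known. The 4 libraries were live WT placebo and live heterozygous placebo labelled lung, and live heterozygous NAC and dead null NAC labelled liver. In them Rbp4 was 2818 to 3866 CPM, Hrg 830 to 1014 CPM and Alb 51003 to 86185 CPM. In the other 4, Rbp4 was 1607 to 2065 CPM, Hrg 536 to 602 CPM and Alb 91486 to 101254 CPM. The 4 libraries with high Rbp4 comprised 2 NAC and 2 placebo libraries, 3 of live and 1 of dead pups, and 2 under each tissue label. On the log2 TMM scale across the 8 libraries, Pearson's r was 0.85 between Rbp4 and Hrg and -0.76 between Rbp4 and Alb. Spearman's rho was 0.67 and -0.81. These pairs were picked out of all pairs of members. Serpina6 and Hrg, for instance, had a Pearson's r of 0.76 and a higher Spearman's rho, 0.905. These coefficients are a description over 8 libraries, 2 of which share a pup group and treatment, and each level is a share of its library's total.

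Other cell types moved in part with that split. The summed level of 10 erythroid genes, hemoglobins among them, was 24121, 9291, 43266 and 10846 CPM in the 4 libraries with high Rbp4, in the order just listed, and 37594 to 56512 CPM in the other 4. The summed level of 7 neutrophil genes was 2155 to 3259 CPM in the libraries with high Rbp4 and 3022 to 3792 CPM in the others. The 7 macrophage and Kupffer cell genes summed to 457 to 562 CPM against 210 to 547 CPM, and the 12 hepatocyte markers to 6093 to 6729 CPM against 5295 to 9082 CPM. All 4 sums overlapped between the sets, and their part in the split was not tested.

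**Figure D3:**
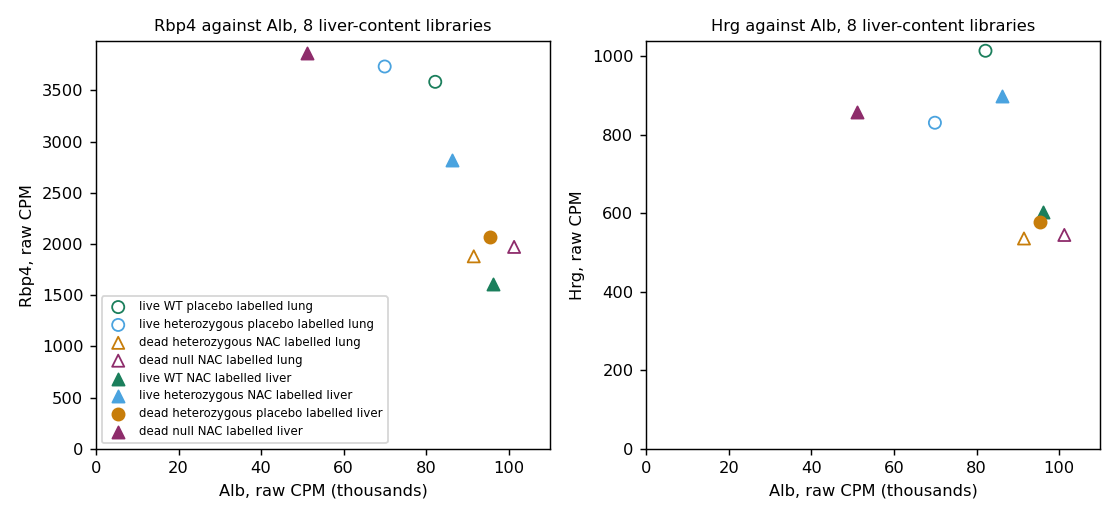
Raw CPM of Rbp4 and of Hrg against raw CPM of Alb in the 8 liver-content libraries, 1 point for each library. The 4 libraries with Alb of at least 91486 CPM have Rbp4 of 2065 CPM or less and Hrg of 602 CPM or less, and the other 4 have more of both. The share of all genes that divide the libraries in this way was not counted.

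The pair of dead null NAC libraries came from the same pup group and treatment under different tissue labels, and both were liver-content. On the TMM scale, the library labelled liver differed from the one labelled lung by a log2 of -1.23 in Alb, -0.79 in Gc, 0.73 in Rbp4 and 0.41 in Hrg. Raw CPM gave -0.99, -0.55, 0.97 and 0.66 for the same genes. The other 6 members differed by -0.42 to -0.12 on the TMM scale, and 3 of them, Ahsg, Ttr and Serpina6, turned sign on raw CPM. The median absolute log2 difference was 0.36 over the members and 0.62 over 13254 genes, and 28.1% of those genes differed by at least 1. These libraries differed in no label other than tissue.

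NAC was compared with placebo among liver-content libraries to ask whether gestational NAC went with a change in plasma protein transcripts once content was alike. Libraries under both treatments existed for live WT, live heterozygous and dead heterozygous pups, 6 libraries in all, and no member passed the test. With pup group as a block in edgeR's quasi-likelihood test, 0 of 9 tested members and 4 of 12963 genes (0.0309%) had an adjusted p under 0.05, 1539 genes had an unadjusted p under 0.05, and DESeq2 called 0 members and 234 genes. Alb was left out of the tests because it set the classes. Its log2FC was 0.18 (SE 0.32). The placebo library was labelled lung and the NAC library liver in both groups of live pups, and the other way round in dead heterozygous pups, so treatment and labelled tissue are in part the same split and cannot be told apart in live pups.

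Rbp4 had the largest difference of the members. Its TMM-scaled level in live WT pups was 4416 CPM with placebo and 2110 CPM with NAC, in live heterozygous pups 4557 and 3379 CPM, and in dead heterozygous pups 2586 and 2272 CPM. It was lower with NAC in 3 of 3 pup groups, with a log2FC of -0.55 (SE 0.25, adjusted p = 0.459 in edgeR's quasi-likelihood test). Over the alternatives its log2FC ran from -0.73 to -0.32, with adjusted p from 0.239 to 0.996. Hrg had a log2FC of -0.23 (SE 0.22) and was lower with NAC in live WT and dead heterozygous pups but not in live heterozygous pups. Serpina1a was at -0.19 (SE 0.22), Ahsg at -0.11 (SE 0.28) and Ambp at -0.07 (SE 0.21). Gc, Fetub, Ttr and Serpina6 lay between -0.02 and 0.09, with SE of 0.20 to 0.33. In the same fit, the other plasma protein Serpina7 at -0.66 (SE 0.17) had an adjusted p of 0.279 in edgeR's quasi-likelihood test, so changes of that size against their error were not called here.

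Dead and live pups were compared among the liver-content libraries, since survival is the main outcome of the Man1a2 mutants. The 4 live samples were WT and heterozygous pups under either treatment, and the 3 dead samples were heterozygous placebo, heterozygous NAC and null NAC, the latter with both libraries summed. In edgeR's quasi-likelihood test, 0 of 9 tested members and 0 of 12983 genes (0%) had an adjusted p under 0.05, 1678 genes had an unadjusted p under 0.05, and DESeq2 called 1 member and 135 genes. All WT pups were live and all null pups dead, so genotype and survival are in part the same split, and age at harvest cannot be told apart from survival.

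The member that DESeq2 called was Serpina6. Its raw level was 7.13 and 6.32 CPM in live WT and live heterozygous placebo pups and 5.20 and 12.3 CPM in live WT and live heterozygous NAC pups. In dead pups it was 3.17 CPM in heterozygous placebo, 2.35 in heterozygous NAC, and 3.83 and 4.04 in the null NAC libraries. All live libraries lay above all dead ones, at 34 to 183 counts a library. The null NAC libraries share a pup group and treatment. The share of all genes that separate live from dead libraries in this way was not counted, so whether this is particular to Serpina6 is not known. The log2FC was -1.23 (SE 0.32, unadjusted p = 0.0042, adjusted p = 0.345 in edgeR's quasi-likelihood test), and DESeq2 gave -1.26 with an adjusted p of 0.0406. Over the alternatives the log2FC ran from -1.69 to -0.94 and the adjusted p from 0.0406 to 0.992.

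Hrg had the next largest difference, a log2FC of -0.42 (SE 0.19, unadjusted p = 0.0599, adjusted p = 0.398 in edgeR's quasi-likelihood test). Live samples had 602 to 1014 CPM of Hrg, and the dead libraries 536, 545, 577 and 858 CPM. The dead null NAC library labelled liver was thus inside the range of the live ones and the other 3 dead libraries below it. Rbp4 was at -0.30 (SE 0.28), and the other 6 tested members lay between -0.10 and 0.13, with SE of 0.15 to 0.19. Alb, with no test, was at 0.10 (SE 0.21).

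**Figure D4:**
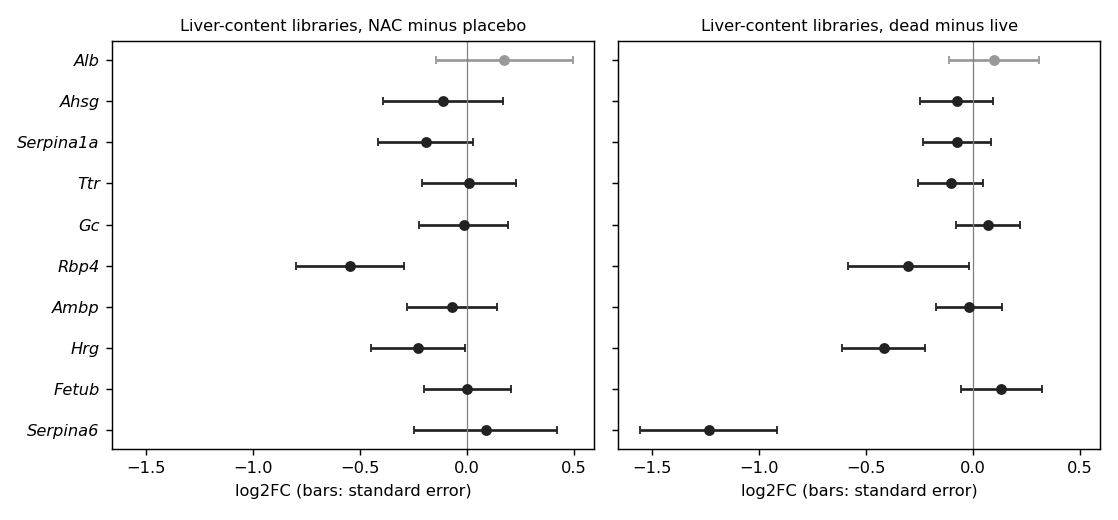
Fitted log2FC of each member in the liver-content libraries, for NAC against placebo in 3 pup groups and for dead against live pups, with bars of 1 standard error from edgeR. Alb is drawn as a value with no test. Rbp4 at -0.55 stands lowest for NAC, Serpina6 at -1.23 and Hrg at -0.42 stand lowest for dead pups, and no member passed an adjusted p of 0.05 in this fit.

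Other plasma proteins of hepatocytes gave the surroundings of the members. Of 48 listed genes 47 were tested, and 0 had an adjusted p under 0.05 by edgeR's quasi-likelihood test in either liver-content comparison, with lowest adjusted p of 0.279 and 0.348. The median log2FC of the list was -0.04 for NAC and -0.09 for dead pups, beside 0.004 and 0.016 over all genes tested. The lowest values for NAC were -0.66 for Serpina7, the thyroxine-binding globulin, and -0.56 for Hpx, which carries heme, and the highest was 0.77 for Orm1, an acute-phase lipocalin. For dead pups the lowest were -0.94 for Igfals, which binds the IGF complex, and -0.80 for Serpina7, and the highest were 0.77 for Serpina3k and 1.15 for Orm1. Levels of Orm1 and Igfals were low in the liver-content libraries, at 1.41 to 9.11 and 5.10 to 31.3 CPM. Of 18 acute-phase genes 15 were tested and 0 were called in either comparison, with a median of 0.12 for NAC and 0.21 for dead pups.

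The genes most like the members were found by correlation on the log2 TMM scale. Each gene was compared with the mean of the members over the 8 liver-content libraries. Of 9310 genes that averaged 10 CPM or more, the highest Pearson's r were 0.92 for Pdia6 and 0.88 for Pdia3, which form disulfide bonds in the endoplasmic reticulum, 0.88 for Igf2, a fetal growth factor, 0.88 for Cstf1 and 0.87 for Fndc3a. These are the top of a search over many genes in 8 libraries and carry no test.

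Lung-content libraries still held reads of most members at low levels. Alb ranged from 10.5 to 135 CPM, Ahsg from 7.37 to 57.0, Serpina1a from 1.57 to 9.76, Gc from 2.03 to 5.43, Ambp from 0.228 to 3.81, Fetub from 0 to 1.52 and Hrg from 0.0847 to 2.19 CPM. Serpina6 had 0 counts in 7 of 7 libraries, which allows up to 0.254 to 0.415 CPM at 3 counts. Rbp4 was at 6.27 to 13.8 CPM, from 59 to 126 counts. Ttr was at 0.677 to 8.43 CPM in 6 libraries and at 20.9 CPM, from 183 counts, in the dead heterozygous placebo library labelled lung. The 9 members other than Alb, which set the classes, were below their lowest liver-content value in all 7 libraries. The share of all genes that separate in this way was not counted, so whether this is particular to the members is not known.

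Ratios to Alb overlapped between liver-content and lung-content libraries for the 8 members other than Alb and Serpina6. Rbp4 had 1.67 to 7.58 counts per 100 counts of Alb in liver-content libraries and 6.94 to 70.7 in lung-content ones. Gc had 2.66 to 4.33 against 3.88 to 25, and Ttr 3.14 to 6.80 against 3.53 to 199. Ahsg had 31 to 62.5 against 26.7 to 70.7, and Ambp 1.75 to 3.15 against 0.80 to 3.03. As a percent of the median of liver-content libraries, the median in lung-content libraries was 0.392% for Rbp4 and 0.130% for Gc, and 0.0541 to 0.103% for the other members with reads. The ranges of Rbp4 per Alb overlapped only between 6.94 and 7.58, and the 7 lung-content ratios rest on 92 to 1169 Alb counts.

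**Figure D5:**
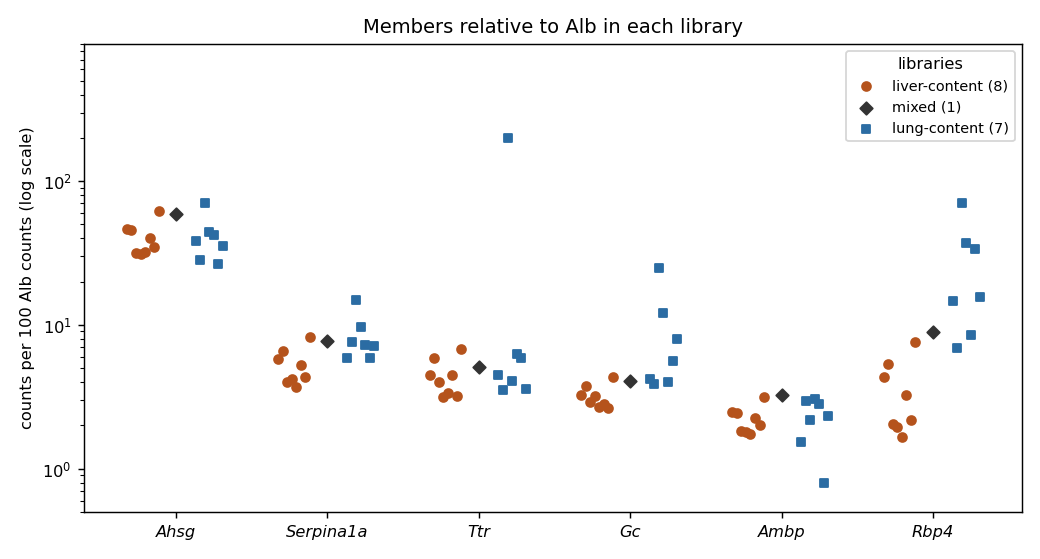
Counts of Rbp4, Gc, Ttr, Ahsg, Serpina1a and Ambp per 100 counts of Alb in each library, on a log axis, coloured by content. Ahsg overlaps between liver-content (31 to 62.5) and lung-content (26.7 to 70.7) libraries, whereas Rbp4 runs from 1.67 to 7.58 in the former and from 6.94 to 70.7 in the latter.

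Within lung-content libraries the same tests were run on the 6 members, apart from Alb, that passed the minimum of 1 CPM on average, which Fetub, Serpina6 and Hrg did not. NAC was set against placebo in live WT, live heterozygous and dead heterozygous pups. In edgeR's quasi-likelihood test 3621 of 14012 genes (25.8%) and 0 of 6 members had an adjusted p under 0.05. An unadjusted p under 0.05 was found for 5550 of the 14012 genes and 2 of the 6 members, and DESeq2 called no member. Rbp4 had a log2FC of 0.74 (SE 0.29, adjusted p = 0.0895), and it was higher with NAC in live WT and dead heterozygous pups and level in live heterozygous pups, at 8.74 with placebo and 8.32 TMM-scaled CPM with NAC. Serpina1a was at 0.92 (SE 0.38), Ahsg at 0.85 (SE 0.44), Ambp at 0.76 (SE 0.52), Gc at 0.39 (SE 0.37) and Ttr at -0.62 (SE 0.83). Alb, with no test, was at 1.60 (SE 0.39). Without live heterozygous pups 2 members were called, Ahsg at 1.57 (adjusted p = 0.0393) and Rbp4 at 1.12 (adjusted p = 0.0472). Without live WT pups 1 was called, Ttr at -1.81 (adjusted p = 0.0418), but without dead heterozygous pups Ttr was at 0.74, with the sign turned (adjusted p = 0.357). The fits without 1 pup group also called many other genes, in a range given below with the dependence on processing. These calls were therefore not particular to the members. Of the other listed plasma proteins 11 of 39 were called, 9 higher and 2 lower with NAC. In the same fit 25.8% of all genes were called. The higher ones included Trf, which carries iron, at 1.88 and Agt, the precursor of angiotensin, at 1.32. The lower ones were Itih4 and Igfbp2. All 4 were named after their values were seen. In that order, their medians in lung-content libraries were 580, 70.3, 8.14 and 13.9 CPM, and which cells made them was not tested. Of the acute-phase list 7 of 13 were called, 6 of them higher, and 5 of the 7 (Lrg1, Fgb, Fgg, Itih4 and Cp) are also among the 11. The median log2FC was 0.51 over each list and -0.03 over all genes tested. The NAC library was labelled lung and the placebo library liver in both groups of live pups, and the other way round in dead heterozygous pups, so treatment and labelled tissue cannot be told apart in live pups. The 12 lung markers summed to 24106 CPM with placebo and 13547 CPM with NAC in live WT pups, to 19095 and 10594 CPM in live heterozygous pups, and to 19134 and 22111 CPM in dead heterozygous pups, and their part in these calls was not tested.

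For dead against live pups in lung-content libraries, 0 of 6 members and 0 of 13990 genes (0%) were called by edgeR's quasi-likelihood test, 168 genes had an unadjusted p under 0.05, and DESeq2 called 0 members. All 6 adjusted p were 1, with log2FC from -1.80 (SE 0.95) for Ambp to 0.93 (SE 0.92) for Ttr. Ttr turned to -0.83 without the dead heterozygous placebo library labelled lung, and Ambp reached -3.82 in heterozygous pups only and -3.05 without the dead null placebo library labelled liver. Alb, with no test, was at -1.25 (SE 0.79).

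The mixed library, labelled dead null placebo lung, held the members at 10.4 to 33.8% of the liver-content medians, apart from Serpina6 with 2 counts. Alb was at 10.4% of its median, Ttr at 13.3%, Gc at 14.5%, Fetub at 16.3%, Serpina1a at 17.0%, Ambp at 17.2%, Ahsg at 17.3%, Hrg at 17.8% and Rbp4 at 33.8%. The 9 members therefore did not stand at a single share of the liver-content median. Against single liver-content libraries, the highest share over the lowest was 1.57 for dead null NAC labelled liver, where the members stood at 13.6 to 21.4%, and 5.32 for live WT NAC labelled liver. Its Rbp4 per 100 Alb counts was 8.90, above the highest of the liver-content libraries at 7.58, and its 12 lung markers summed to 12631 CPM.

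Comparing NAC with placebo by label, as the design of the study implies, set a library of one content against a library of another in every pup group and tissue. All 10 members passed the thresholds in all 8 of these pairs, in edgeR's exact test with an assumed coefficient of variation of 0.2, an absolute log2FC of at least 1 and an adjusted p under 0.05. The share of all genes that passed for the libraries labelled lung was 43.4% in dead null pups, 48.7% in dead heterozygous pups, 53.8% in live WT pups and 58.2% in live heterozygous pups. For those labelled liver it was 53.4, 49.2, 47.8 and 48% in the same order. The members were lower with NAC in live WT and live heterozygous pups labelled lung and in dead heterozygous pups labelled liver, and higher in the other 5 pairs. The liver-content library of a pair held the higher level of each member, which for Alb is set by the rule for content. With a coefficient of variation of 0.4, 9 members passed in the dead null pair labelled lung, and with a mean of at least 10 CPM 9 passed in each of the 8 pairs, since Serpina6 averaged less in all of them. In the dead null pair labelled lung, where the placebo library was mixed, the members' median log2FC was 3.26, with a range of 1.93 to 4.63. These tests compare pairs of libraries and not conditions.

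Over the 4 pup groups with pup group as a block, 0 of 10 members and 0 of 14086 genes (0%) labelled lung passed edgeR's quasi-likelihood test, with 312 genes at an unadjusted p under 0.05, while DESeq2 called 0 members and 28 genes. In the libraries labelled liver 0 of 10 members and 0 of 14266 genes (0%) passed, with 63 genes at an unadjusted p under 0.05. DESeq2 called all 10 members and 736 genes there. Without dead heterozygous pups edgeR called all 10 members and 8427 genes in the libraries labelled liver, since in the other 3 pup groups the NAC library was the liver-content one.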

How the data were processed

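Bulk mRNA was sequenced from pooled RNA of newborn lung and liver in 16 libraries, and each library was 1 sample. The authors made stranded paired-end libraries, aligned reads to the mouse genome (build 38) with the Omicsoft aligner and kept uniquely mapped reads. The values they deposited are estimated counts per gene symbol, 6.27 to 7.96% of which were not whole in a library, with no normalization. The submitters' processing notes name R 4.0.3 and edgeR 3.30.3. Here the values were rounded to whole numbers before testing, since the tests had been planned for counts. CPM are counts divided by a library's total and multiplied by 1000000, with no pseudocount in printed levels. Of the 25054 rows 5536 were 0 in every library, and 329 symbols stood on more than 1 row.

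Tests used edgeR 4.0.16 in R 4.3.3 with TMM scaling, genes averaging 1 CPM or more, a threshold of 0.05 on the Benjamini-Hochberg adjusted p over all genes, and a prior count of 0.125 for log2FC. The exact test of 1 library against 1 assumed a dispersion of 0.04. The quasi-likelihood test was used over pup groups and within content classes, with libraries of the same pup group and treatment summed. Adjusted p values in the text come from these edgeR fits, or from DESeq2 1.42.0 where named. Alternatives were other scaling, no filter or a mean of at least 10 CPM, coefficients of variation of 0.1 and 0.4, no block, treatment as a covariate, heterozygous pups only, other content cuts, DESeq2 and leaving out each pup group or sample. Leaving out each dead null NAC library was added after the data were seen. The scripts were tested on simulated data. Sequences and motif positions came from RefSeq windows of 250 bases before and 50 after the start, and other computations used Python 3.11.15. Protein sequences were not used here.

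The members, the gene lists and the content classes were chosen with earlier results of these data known. Named genes were the members, Sftpc, Man1a2, the 5 genes most like the members, and the 2 highest and 2 lowest of the other plasma proteins in each liver-content comparison, 1 of which is not reported here. Other genes named in the text, such as marker genes, copies of Serpina1a and plasma proteins called in lung-content libraries, were chosen outside this rule. Pools are not separate animals, so p-values of the quasi-likelihood test and DESeq2 measure only the spread between these libraries, which may be technical. Those of the exact test rest on the assumed dispersion and measure no spread. A count of 0 was given an upper limit of 3 counts, for counting error only.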

Additional observations from a re-analysis of the deposited data

Results flagged for a closer look

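Gc reached 3228 CPM in the dead null NAC library labelled lung, apart from the other liver-content libraries, the next of which had 2671 CPM. Ttr reached 20.9 CPM in the dead heterozygous placebo library labelled lung, where the next lung-content library had 8.43 CPM. Hrg reached 2.19 CPM in the live heterozygous placebo library labelled liver, where the next lung-content library had 0.967 CPM, both from fewer than 20 counts. In all 3 the gap to the nearest library on raw CPM was larger than Dixon's 95% critical value allows. That value is made for normally distributed levels, and other scales, on which the gaps can be smaller, were not examined. In all, 19 sets of a member and a class were examined, of which chance alone would flag about 1 in 20 if levels were normal.

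In libraries labelled lung, 10 of 10 members were higher with NAC in dead heterozygous and dead null pups and 0 of 10 in live WT and live heterozygous pups. In libraries labelled liver, 10 of 10 were higher with NAC in dead null, live heterozygous and live WT pups and 0 of 10 in dead heterozygous pups. These differences between pup groups were not tested, and each went with which library of a pair was liver-content.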

How the results depend on the processing

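No member called in the main edgeR fits, those not listed as alternatives, changed direction under the alternatives run. Other called genes, the listed plasma and acute-phase proteins among them, were not followed for direction. A member called only in an alternative did change direction. Ttr in lung-content libraries, called for NAC only without live WT at -1.81, was at 0.74 without dead heterozygous pups. Replicate numbers give no pairing, since each labelled group has 1 library, and pup group was the block that paired NAC with placebo. Genes called in the labelled pairs fell with a mean of at least 10 CPM to 3967 (dead null), 4582 (dead heterozygous), 4994 (live WT) and 5310 (live heterozygous) labelled lung, and to 4409, 4549 and 4534 labelled liver in the last 3 of these pup groups, and members called to 9 in each pair. With a coefficient of variation of 0.4 they fell to 1863, 3472, 3748 and 4010 labelled lung and to 3460, 3381, 3298 and 3395 labelled liver. Over the 4 pup groups, DESeq2 called 28 genes labelled lung and 736 genes and 10 members labelled liver, and leaving out 1 pup group gave 0 to 8427 genes and 0 to 10 members labelled liver. For NAC among liver-content libraries, 15 genes were called with no filter, 0 with a mean of at least 10 CPM, 0 with no pup group block, 234 by DESeq2 and 0 to 145 without 1 pup group, the highest without live WT. For dead against live, 395 genes were called in heterozygous pups only, 135 genes and 1 member by DESeq2, and 0 to 73 without 1 sample or library, the highest without live WT NAC. For NAC among lung-content libraries, leaving out 1 pup group gave 1059 to 4202 genes and 0 to 2 members. The cause of these shifts was not tested. With an Alb cut of 100000 CPM, 1 library was liver-content. Hrg and Fetub had under 20 counts in each lung-content library, so differences in them were not detectable at this depth.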
